A study of Rattus norvegicus with 36 samples.

Results

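The 10 genes described here are the feedback inhibitors of extracellular signal-regulated kinase (ERK) signalling Spry1, Spry2, Spry4, Spred1, Dusp4, Dusp5 and Dusp6, with the ERK-responsive genes Etv4, Etv5 and Phlda1. They were chosen by symbol: a probe set counted as a member when it was annotated with 1 of these symbols and no other. Of 31099 probe sets on the array, 20832 carried 1 symbol, and 13 of those belonged to 9 of the 10 genes (3 for Dusp6, 2 each for Etv4 and Etv5, 1 each for the rest). No probe set of Spred1 was analysed here, and none of Hras. Gene expression was measured on 36 single-colour arrays of total RNA from mammary tissue of female Sprague-Dawley rats, 33 cancers and 3 normal mammary tissues.

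The normal tissues (n = 3) and the spontaneous cancers (n = 3, no H-ras mutation) came from untreated rats. Radiation was a single whole-body dose of 1 Gy of gamma rays given at 7 weeks of age (4 cancers, no H-ras mutation). MNU is N-methyl-N-nitrosourea, an alkylating agent, injected at 40 mg/kg (5 cancers with mutated H-ras, 4 without). PhIP is a heterocyclic amine formed in cooked meat, given by gavage at 40 mg/kg/day on 5 days a week for 2 weeks (1 cancer with mutated H-ras, 3 without). For combined treatment the chemical followed radiation by 3 days (radiation plus MNU, 5 mutated and 4 nonmutated; radiation plus PhIP, 4 nonmutated). The treatment age was given as 7 weeks for the MNU and PhIP groups as well. All rats ate an AIN-76A diet with 23.5% corn oil from 9 weeks of age, so a high-fat diet is shared by every group. H-ras status belongs to the tumour and was not assigned, and the labels do not say which change each mutated cancer carried. They also do not say that every cancer came from a different rat, so p-values measure the spread between these samples only.

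Growth factor receptors activate RAS, which activates RAF, MEK and ERK in turn, and active ERK induces genes that switch the pathway off again. Sprouty and SPRED proteins act near RAS and RAF, while the dual-specificity phosphatases DUSP4 and DUSP5 dephosphorylate ERK in the nucleus and DUSP6 does so in the cytoplasm. ETV4 and ETV5 are ETS transcription factors of the PEA3 group, induced downstream of fibroblast growth factor signalling and expressed in branching mammary epithelium. Transcripts of these genes are widely used as a readout of ERK pathway output, and H-ras is the RAS gene that is typically mutated in MNU-induced rat mammary cancers.

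RefSeq promoter windows on the GRCr8 rat assembly, 250 bases before to 50 after a gene's start, were held for 8 members (9 windows, 2 of them of Spry2). Those of Spry1, Spry2, Dusp5 and Etv5 are shown because these genes were higher in cancers than in normal tissue. Each is given 5′ to 3′ on the gene's strand, with capitals marking matches to the ETS letters CCGGAA on either strand or to the serum response element (SRE), and Spry2 is shown by its window that holds a match.
Dusp5, chr1:262543524-262543823, plus strand: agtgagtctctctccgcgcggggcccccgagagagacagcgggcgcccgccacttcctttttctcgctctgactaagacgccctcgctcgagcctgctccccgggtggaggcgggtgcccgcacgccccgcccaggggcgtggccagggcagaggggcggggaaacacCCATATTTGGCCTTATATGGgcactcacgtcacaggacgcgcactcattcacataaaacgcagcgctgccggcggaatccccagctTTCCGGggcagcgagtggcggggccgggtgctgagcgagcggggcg
Spry2, chr15:89111877-89112176, minus strand: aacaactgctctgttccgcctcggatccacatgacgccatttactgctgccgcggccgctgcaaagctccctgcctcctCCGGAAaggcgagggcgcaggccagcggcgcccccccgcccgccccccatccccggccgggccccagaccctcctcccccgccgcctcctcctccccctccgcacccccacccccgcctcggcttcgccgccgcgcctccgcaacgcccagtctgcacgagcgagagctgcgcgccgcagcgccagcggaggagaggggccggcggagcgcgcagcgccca
Spry1, chr2:122485097-122485396, plus strand: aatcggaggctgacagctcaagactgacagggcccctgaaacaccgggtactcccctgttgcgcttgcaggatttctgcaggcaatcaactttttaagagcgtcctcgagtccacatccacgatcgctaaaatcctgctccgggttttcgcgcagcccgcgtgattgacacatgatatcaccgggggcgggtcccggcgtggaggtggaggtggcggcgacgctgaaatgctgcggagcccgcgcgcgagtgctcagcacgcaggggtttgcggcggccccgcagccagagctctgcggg
Etv5, chr11:92113013-92113312, plus strand: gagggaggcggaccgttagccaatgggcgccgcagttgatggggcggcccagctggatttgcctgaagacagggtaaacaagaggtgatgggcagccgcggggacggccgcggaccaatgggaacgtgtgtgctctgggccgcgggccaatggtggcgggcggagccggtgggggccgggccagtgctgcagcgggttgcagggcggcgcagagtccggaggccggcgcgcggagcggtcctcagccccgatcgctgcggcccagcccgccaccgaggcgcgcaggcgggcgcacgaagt

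The Dusp5 window held 2 SRE matches side by side, the first starting 82 and the second 72 bases before the start, and no other member window held one, beside 1.64% of the 33469 rat windows. The ETS letters were found in 4 of the 9 member windows (Dusp5, Phlda1, one window of Spry2, and Spry4), beside 15% of all windows. All motifs were searched on both strands, and no match shared a base with another. The AP-1 letters TGANTCA were in none of the 9, beside 7.33% of all windows. Neither the letters TGACGTCA of the cyclic AMP response element (1.83% of all windows) nor a TATA box, the letters TATAAA (14.2%), was found in any. The 4 windows shown hold between 63% and 76.3% G and C bases and 29 to 38 CpG, against medians of 51.7% and 7 over all windows. These matches are a description of letters and say nothing of binding.

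Levels below are log2 of the deposited array intensity plus a constant of 42.8, and a difference is the first group's mean minus the second's on that scale, which understates changes of dim genes. Where a gene had several probe sets, the brightest was used for the main result. All 13 member probe sets passed the filter on low intensity (above 125.8 on at least 3 arrays). Dusp4 passed with only 3 of 36 arrays above that intensity, which were the 3 PhIP nonmutated cancers. It entered through the group where it is highest, so its values there are given as a description with no test, and on the other 33 arrays it lay below that intensity, whereas the main probe sets of the other members were above it on 35 or 36 arrays. "Called" means an adjusted p under 0.05 in limma's moderated test, with Benjamini-Hochberg adjustment over all 11773 genes kept. Median intensity per array lay between 161.4 and 222.7. The hexokinase 3′/5′ signal ratio, a control for RNA integrity, stood at 12.3 in MNU nonmutated cancer 4 and 4.66 in MNU mutated cancer 1, against 1.66 to 3.41 on the other arrays. Results whose call turned on both arrays are also given without them.

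Cancers and normal tissue were compared first. Spry1, Spry2, Dusp5, Etv4 and Etv5 were higher in the 33 cancers than in the 3 normal tissues, Etv4 by 4.37-fold, Etv5 by 3.84-fold, Spry1 by 2.48-fold, Spry2 by 2.41-fold and Dusp5 by 1.77-fold. Spry4, Dusp6 and Phlda1 were not called, and Dusp4 is given below as a description. Thus 5 of 9 members were called higher and none lower, or 5 of 8 without Dusp4. In this comparison 34.4% of all genes were called (18% higher and 16.4% lower). The median difference over the 9 members was 0.93, beside 0.02 over all genes. Because the tissue was analysed in bulk, a change in the number of cells of a type and a change in RNA per cell cannot be told apart.

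**Figure D1:**
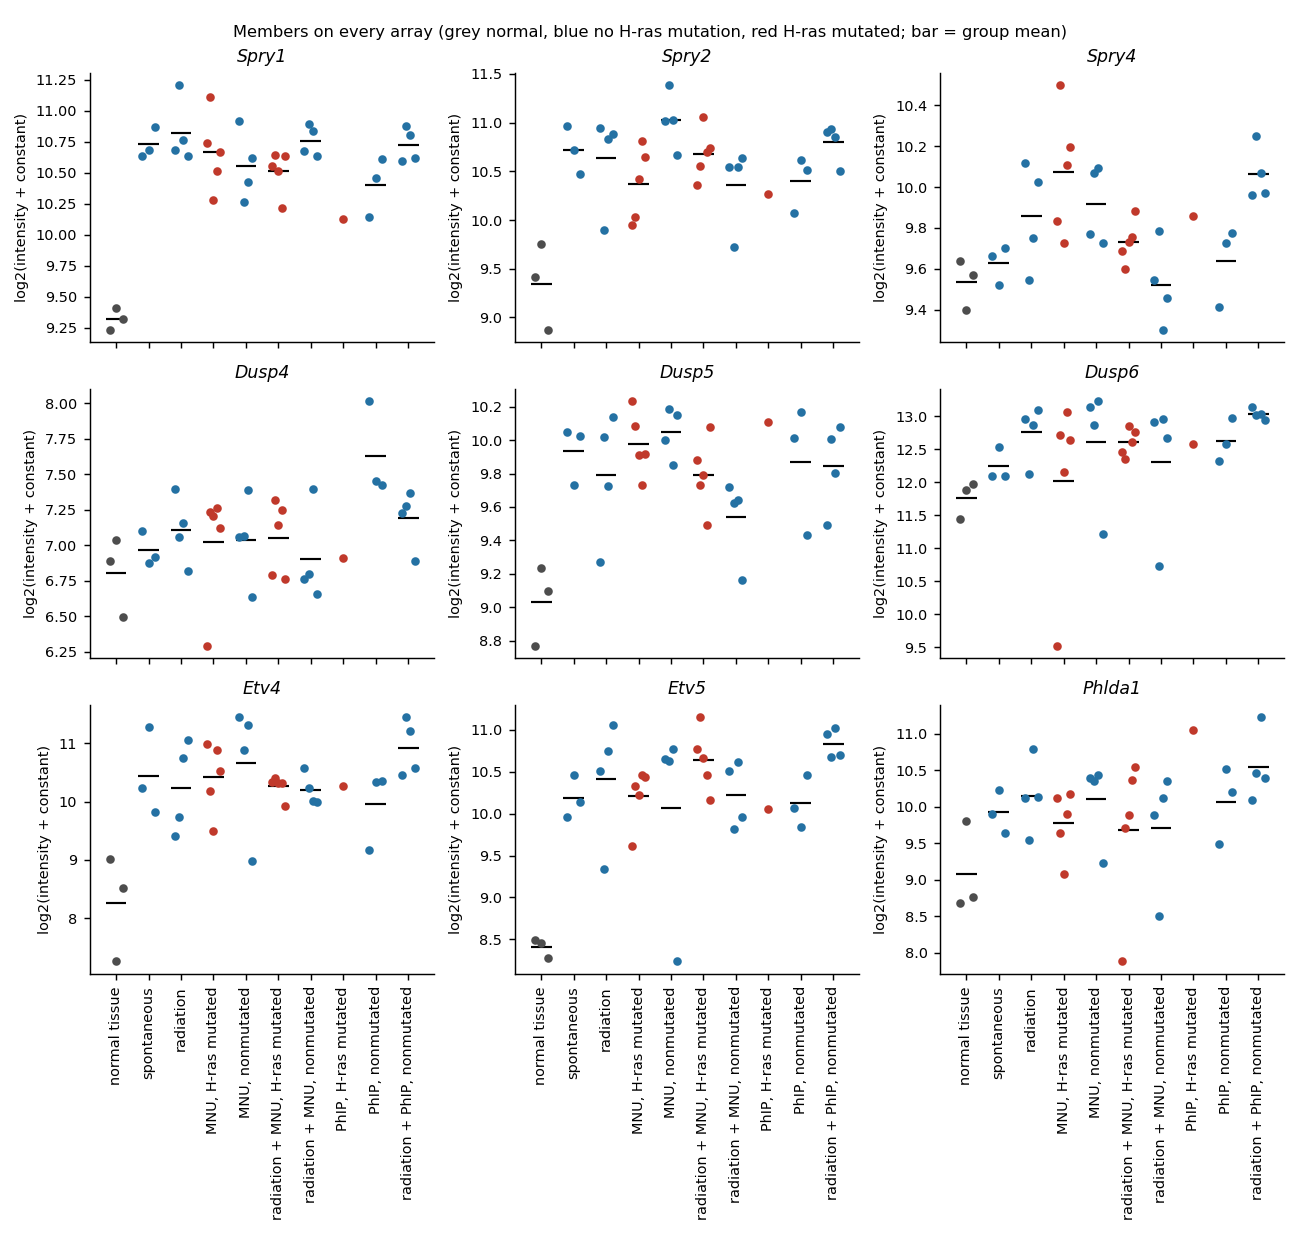
The panels plot log2(intensity + 42.8) of each of the 9 measured members on every array, by group, with a bar at the group mean (no bar for the single PhIP cancer with mutated H-ras). Spry1 lies higher in all 33 cancers than in any normal tissue, while Dusp4 is highest in the 3 PhIP nonmutated cancers and Dusp6 has single arrays far below the rest.

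Among the Sprouty genes, Spry1 measured 9.23, 9.41 and 9.32 in the 3 normal tissues and from 10.13 to 11.20 in the cancers, with a median of 10.63. No cancer reached down to the normal range, a separation in that direction shown by 3.95% of all genes. The difference was 1.31 ± 0.13 (SE; limma, adjusted p = 1.11e-08). Spry2 measured 9.41, 9.75 and 8.87 in normal tissue and from 9.72 to 11.38 in cancers (median 10.64). Only radiation plus MNU nonmutated cancer 2, at 9.72, fell within the normal range, and the difference was 1.27 ± 0.20 (adjusted p = 2.43e-05, limma). Spry4 was 9.64, 9.40 and 9.57 in normal tissue and ranged from 9.30 to 10.50 in cancers (median 9.77). The groups overlapped, and its difference of 0.29 ± 0.12 missed the threshold (adjusted p = 0.0707, limma).

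Of the phosphatases, Dusp5 measured 8.77, 9.23 and 9.10 in normal tissue and from 9.17 to 10.23 in cancers (median 9.91). It exceeded every normal tissue in 32 of 33 cancers, by 0.82 ± 0.15 on average (adjusted p = 0.000144, limma). With the mean of the luminal epithelial markers as a covariate, an alternative chosen after seeing the data, the difference was 0.46 and no longer called (adjusted p = 0.0785, limma). That list's mean lay between 10.91 and 11.49 in normal tissue and between 11.24 and 12.12 in cancers. Dusp4 measured 6.89, 7.04 and 6.50 in normal tissue and from 6.29 to 8.01 in cancers. Its difference of 0.28 ± 0.17 is given with no test, since the cancers include those through which it passed the filter. Dusp6, by its main probe set, measured 11.45, 11.88 and 11.97 in normal tissue and from 9.53 to 13.23 in cancers (median 12.72). It lay above all normal tissues in 30 of 33 cancers, and the 3 exceptions were MNU mutated cancer 1 at 9.53, radiation plus MNU nonmutated cancer 2 at 10.73 and MNU nonmutated cancer 4 at 11.21. The difference of 0.76 ± 0.44 was not called (adjusted p = 0.19, limma).

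The call on Dusp6 turned on few arrays and on the probe set. Leaving out MNU mutated cancer 1 gave 0.85 with an adjusted p of 0.0401 (limma), and leaving out that array and MNU nonmutated cancer 4, those with the highest hexokinase ratios, gave 0.90 with an adjusted p of 0.0104. In a fit of all 16370 probe sets kept, the other Dusp6 probe sets were both called, the second brightest by 0.84 ± 0.25 (adjusted p = 0.0124) and the dimmest by 1.51 ± 0.47 (adjusted p = 0.0158, limma). Over the 33 cancers the second brightest followed the main probe set closely (Pearson r = 0.895, Spearman rho = 0.846; adjusted permutation p = 2.5e-05 for both, the smallest 100000 permutations can give over 5 such pairs; r = 0.785 without the 2 cancers farthest from the median). The dimmest did not (r = -0.222, rho = 0.137, adjusted permutation p = 0.222 and 0.502; r = 0.141 without 2 cancers). In MNU mutated cancer 1, where the main probe set was at its lowest, the dimmest read 11.70, its highest value on any array.

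Etv4 measured 9.01, 7.26 and 8.52 in normal tissue and from 8.98 to 11.45 in cancers (median 10.34). Only MNU nonmutated cancer 4 lay within the normal range, and the difference was 2.13 ± 0.39 (adjusted p = 0.000116, limma). Its second probe set was also higher, by 1.69 ± 0.35 (adjusted p = 0.000465, limma), and the probe sets rose and fell together over the cancers (r = 0.81, rho = 0.803, adjusted permutation p = 2.5e-05 for both; r = 0.757 without 2 cancers). Etv5 measured 8.49, 8.45 and 8.28 in normal tissue and from 8.24 to 11.15 in cancers (median 10.47). Again 32 of 33 cancers lay above the normal range, the exception being MNU nonmutated cancer 4 at 8.24, and the difference was 1.94 ± 0.32 (adjusted p = 3.43e-05, limma). The second, dimmer Etv5 probe set did not show it: 7.88, 7.98 and 8.48 in normal tissue, a mean of 8.09 in cancers and a difference of -0.016 ± 0.145 (adjusted p = 0.945, limma). The fold of Etv5 therefore holds for one of its 2 probe sets.

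Phlda1 encodes a pleckstrin homology-like protein known to dampen ErbB receptor signalling. It measured 8.68, 9.80 and 8.76 in normal tissue and from 7.88 to 11.23 in cancers (median 10.13), so that the groups overlapped. The difference of 0.93 ± 0.38 just missed the threshold (adjusted p = 0.0573, limma). Leaving out 1 of 5 single arrays carried it past: normal tissue 2 (1.29, adjusted p = 0.0382), MNU mutated cancer 3 (0.96, 0.0494), MNU nonmutated cancer 4 (0.96, 0.0437), radiation plus MNU mutated cancer 1 (1.00, 0.0148) or radiation plus MNU nonmutated cancer 2 (0.98, 0.032). It was also called without the 2 arrays of highest hexokinase ratio (0.95, adjusted p = 0.047) and with array weights (1.07, adjusted p = 0.0274, limma).

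**Figure D2:**
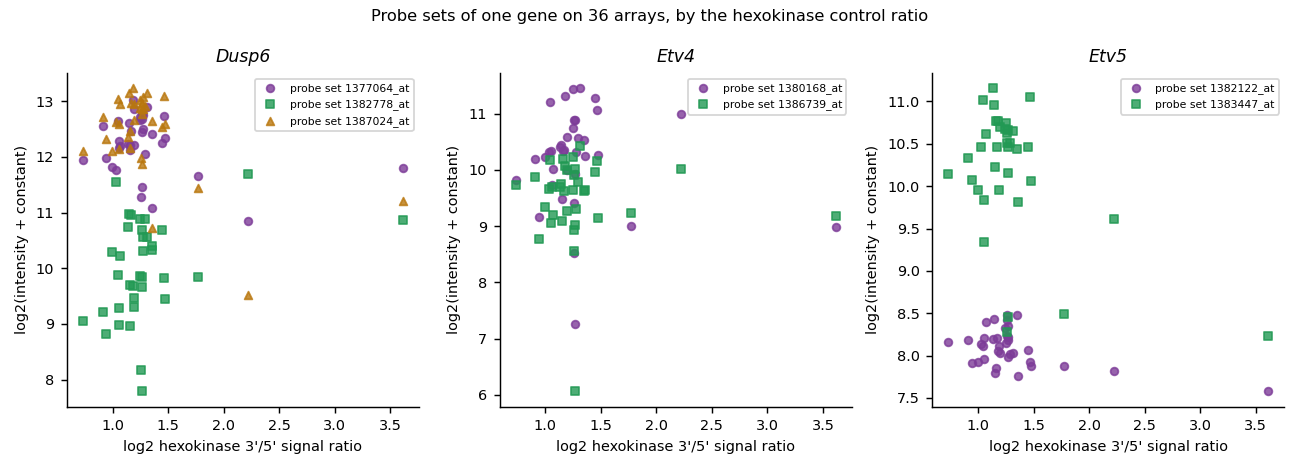
Each panel plots log2(intensity + 42.8) of every probe set of one gene on the 36 arrays (vertical axis) against log2 of the hexokinase 3′/5′ ratio (horizontal axis). On the array at the far right, MNU nonmutated cancer 4, Etv5 reads 8.24 by its main probe set, and the 3 Dusp6 probe sets do not move alike.

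Transcripts of cell type markers also differed in the same comparison, in which 18% of all genes were called higher and 16.4% lower. The 10 adipocyte markers averaged 10.98 to 11.75 in normal tissue and 7.29 to 8.23 in cancers, with 9 of 10 called lower, and all 9 measured endothelial markers were called lower. Of 9 measured luminal epithelial markers, 6 were called higher. Fibroblast markers had 2 of 10 called lower, macrophage markers 5 of 10, and T and NK cell and skeletal muscle markers none. Basal and myoepithelial markers had 3 of 10 called higher and 1 lower. The part of these changes in the members' differences was not tested beyond the luminal covariate, under which Spry1, Spry2, Etv4 and Etv5 stayed called and Phlda1 was called as well (1.43, adjusted p = 0.0468, limma).

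Each cancer group was then set beside the same 3 normal tissues, and the counts below therefore share those arrays. Spontaneous and radiation cancers each had 5 of 9 members called higher (13% and 12.2% of all genes were), namely Spry1, Spry2, Dusp5, Etv4 and Etv5 in both. MNU mutated cancers had 6 (15.2% of genes) and MNU nonmutated cancers 5 (11.6%). PhIP nonmutated cancers had 5 without Dusp4 (12.8%), radiation plus MNU mutated cancers 5 (12.3%), radiation plus MNU nonmutated cancers 4 (7.7%) and radiation plus PhIP cancers 7 (11.8%). No member was called lower in any of the 8 groups, where, in the same order, 10.5%, 10.3%, 13.9%, 10.7%, 11.3%, 12.9%, 8.26% and 11.3% of all genes were. Spry1, Spry2, Etv4 and Etv5 were called in all 8 with every array in the fit, Spry1 by 1.08 to 1.50, Spry2 by 1.02 to 1.68, Etv4 by 1.69 to 2.65 and Etv5 by 1.66 to 2.43. Spry1 and Etv5 kept all these calls whichever single array was left out, but Etv4 and Spry2 did not. Without normal tissue 2, where Etv4 was lowest, Etv4 was not called in radiation (1.47, adjusted p = 0.0587), PhIP nonmutated (1.19, 0.143) or radiation plus MNU nonmutated cancers (1.44, 0.0841), nor in PhIP nonmutated cancers without cancer 3 (1.49, 0.0832) or cancer 4 (1.49, 0.0674). With the Gapdh 3′/5′ ratio as a covariate Etv4 was also not called in PhIP nonmutated cancers (1.35, 0.06, limma). Without normal tissue 3, where Spry2 was lowest, Spry2 was not called in PhIP nonmutated (0.82, adjusted p = 0.0562) or radiation plus MNU nonmutated cancers (0.78, 0.0761, limma).

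The remaining calls varied between groups. Dusp5 was called in all groups but radiation plus MNU nonmutated, where it was 0.50 ± 0.19 higher (adjusted p = 0.0767; without cancer 4 of that group it was 0.63 and called, adjusted p = 0.0305, limma). With the luminal covariate, Dusp5 lost its call in 6 of these 7 groups, all but MNU nonmutated: spontaneous (0.60, adjusted p = 0.0531), radiation (0.39, 0.232), MNU mutated (0.51, 0.129), PhIP nonmutated (0.41, 0.271), radiation plus MNU mutated (0.34, 0.338) and radiation plus PhIP (0.50, 0.0849, limma). Spry4 was called in MNU mutated cancers (0.54 ± 0.15, adjusted p = 0.00741) and in radiation plus PhIP cancers (0.53 ± 0.16, adjusted p = 0.0149, limma), and its difference was -0.01 in radiation plus MNU nonmutated cancers. Both Spry4 calls were lost without normal tissue 2 (0.47, adjusted p = 0.0503, and 0.46, adjusted p = 0.0763, limma), and that in MNU mutated cancers also with the luminal covariate (0.58, adjusted p = 0.0579, limma). Dusp4 measured 8.01, 7.45 and 7.43 in PhIP nonmutated cancers, the arrays through which it passed the filter, and 6.89, 7.04 and 6.50 in normal tissue, below that filter. The highest of these, cancer 2, also had the lowest fibroblast (8.14) and macrophage (8.73) marker means of all arrays. Over the cancers Dusp4 had r = -0.447 with the fibroblast and -0.502 with the macrophage mean, given as a description with no test. The part of these markers in its high values was not tested. Phlda1 was called only in radiation plus PhIP cancers (1.47 ± 0.48, adjusted p = 0.0275), and not without cancer 3 (1.24, 0.0881), normal tissue 1 (1.27, 0.103) or normal tissue 3 (1.31, 0.107, limma), nor with the Gapdh covariate (1.19, 0.0711). Array weights called it also in radiation (1.26, adjusted p = 0.0362), MNU nonmutated (1.29, 0.0377) and PhIP nonmutated cancers (1.25, 0.0287, limma), in a weighting that stopped before its convergence tolerance. Dusp6 was called in no group with every array in the fit. Without the 2 arrays of highest hexokinase ratio it was called in radiation (1.00, adjusted p = 0.0303), MNU nonmutated (1.32, 0.0108) and radiation plus PhIP cancers (1.27, 0.00704, limma). Leaving out MNU mutated cancer 1 alone, which shares the estimate of spread, called it in radiation plus PhIP cancers (1.27, adjusted p = 0.0238), as did array weights (1.27, 0.0364). Leaving out radiation plus MNU mutated cancer 1 called Phlda1 in radiation cancers (1.07, adjusted p = 0.0492, limma). A call in one group and not in another does not show that the groups differ. The single PhIP cancer with mutated H-ras read 10.13 for Spry1, 10.27 for Spry2, 10.27 for Etv4, 10.06 for Etv5 and 11.05 for Phlda1, with no test.

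The labels split the cancers after MNU, with or without radiation, by H-ras status, which allows the question whether mutated H-ras goes with higher transcripts of these ERK-induced genes. No member was called in either background, in the mean of the 2 or in the difference between them. The same holds for the array as a whole, where 0% of the 11773 genes were called in each of the 4 comparisons (limma), although 7.87% had an unadjusted p under 0.05 in MNU, 3.92% in radiation plus MNU, 7.56% in the mean and 3.32% in the difference. Of the members, 1 of 9 had an unadjusted p under 0.05 in MNU, none in radiation plus MNU, none in the mean and 1 in the difference. The members' median difference was -0.07 in MNU, with 3 of 9 higher in mutated cancers, and 0.21 in radiation plus MNU, with 7 of 9 higher. In radiation plus MNU, marker lists of other cells moved with the same split: all 10 macrophage markers (median -0.71, 7 with an unadjusted p under 0.05) and all 10 fibroblast markers (median -0.83, 1 with an unadjusted p under 0.05) were lower in mutated cancers, none of them called (limma). The macrophage list averaged 9.03 to 10.19 in those mutated cancers and 9.61 to 10.97 in the nonmutated ones, and the fibroblast list 9.81 to 10.73 and 10.37 to 11.41. In MNU the medians were -0.20 and -0.10, with 8 and 7 of 10 lower. Basal and myoepithelial markers had a median of -0.21 in MNU, with 4 of 10 higher in mutated cancers. In radiation plus MNU it was 0.24, with 8 of 10 higher, and the difference between backgrounds was positive for all 10 (median 0.38). After radiation plus MNU, 0 of 9 endothelial, 1 of 10 T and NK cell, 3 of 10 adipocyte, 7 of 9 luminal epithelial and 4 of 7 skeletal muscle markers were higher. None of these was called (limma). The part of all these lists in the members' values was not tested beyond the luminal covariate and the correlations over the cancers described below.

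**Figure D3:**
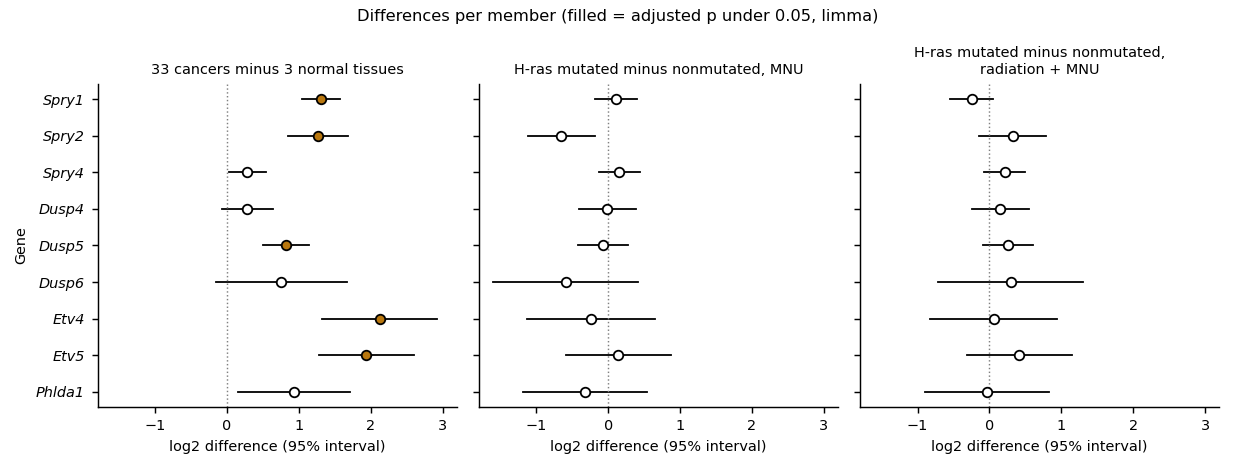
Points are log2 differences and lines their 95% intervals (limma) for 9 members: cancers minus normal tissue at the left, and H-ras mutated minus nonmutated cancers after MNU and after radiation plus MNU. Filled points are called, which are 5 members in the left panel and none in the others.

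Spry2 came nearest in MNU cancers. It measured 9.95, 10.03, 10.42, 10.81 and 10.64 in the 5 mutated cancers and 11.02, 11.38, 11.02 and 10.67 in the 4 nonmutated ones. The groups overlapped, and the difference was -0.65 ± 0.23 (unadjusted p = 0.00769, adjusted p = 0.411, limma). After radiation plus MNU, Spry2 measured 10.36, 10.56, 11.06, 10.70 and 10.74 in mutated cancers and 10.54, 9.72, 10.54 and 10.63 in nonmutated ones. The groups again overlapped, and the difference of 0.32 ± 0.23 had the opposite sign (unadjusted p = 0.168, adjusted p = 1, limma). Leaving out 1 array at a time moved that difference between 0.11 and 0.41. The difference of the differences, 0.97 ± 0.32, had an unadjusted p of 0.00514 and an adjusted p of 1 (limma). Luminal markers averaged 11.80 in MNU mutated and 11.55 in MNU nonmutated cancers, and with their mean as a covariate the MNU difference of Spry2 was -0.37 and the difference of the differences 0.79.

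Spry4, another Sprouty gene, was higher with mutated H-ras in both backgrounds, by 0.16 ± 0.14 in MNU and 0.21 ± 0.14 in radiation plus MNU, neither called. It measured 9.84, 10.50, 9.72, 10.11 and 10.20 in MNU mutated cancers against 9.77, 10.07, 10.10 and 9.73 in nonmutated ones. After radiation plus MNU it was 9.69, 9.60, 9.73, 9.76 and 9.88 against 9.55, 9.78, 9.30 and 9.46. The groups overlapped in both, and the mean difference of 0.18 ± 0.10 was the lowest unadjusted p of any member in that test (0.0672, adjusted p = 0.68, limma). Spry1 differed by 0.11 ± 0.15 in MNU and -0.25 ± 0.15 in radiation plus MNU.

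Among the phosphatases, Dusp5 differed by -0.07 ± 0.17 in MNU and 0.26 ± 0.17 in radiation plus MNU, where it was 9.88, 9.73, 9.79, 9.49 and 10.08 in mutated cancers and 9.72, 9.63, 9.64 and 9.17 in nonmutated ones. The groups overlapped there, and neither difference was called. Dusp6 differed by -0.59 ± 0.49 in MNU, with 9.53, 12.72, 12.16, 13.07 and 12.64 against 13.15, 12.87, 13.23 and 11.21, and by 0.30 ± 0.49 in radiation plus MNU. The lowest value of each MNU group came from its array of high hexokinase ratio, and leaving out 1 array at a time moved the MNU difference between -1.06 and 0.033. Dusp4 differed by -0.01 ± 0.19 and 0.15 ± 0.19, at values near background.

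For Etv4 the differences were -0.24 ± 0.43 in MNU and 0.06 ± 0.43 in radiation plus MNU. Etv5 differed by 0.14 ± 0.36 and 0.42 ± 0.36. Its MNU value turned to -0.47 without MNU nonmutated cancer 4, the array of highest hexokinase ratio, and to -0.32 without both arrays of high ratio, neither called (adjusted p = 0.564 and 0.818, limma). Phlda1 differed by -0.33 ± 0.42 and -0.03 ± 0.42. The 95% intervals of the mean H-ras difference give the sizes of that mean, over both backgrounds, that these samples leave room for. They ran from -0.014 to 0.38 for Spry4, from -0.49 to 0.16 for Spry2, from -0.16 to 0.34 for Dusp5, from -0.24 to 0.80 for Etv5, from -0.72 to 0.54 for Etv4 and from -0.86 to 0.57 for Dusp6. They do not bound either background alone, and for Spry2 the interval in MNU ran from -1.11 to -0.19. Differences of the size seen between cancers and normal tissue lie outside the intervals of the mean, in either direction, for Spry2, Dusp5, Etv4 and Etv5. For Dusp6 a mean difference of 0.76 lies above the interval, but one of that size in the lower direction lies within it.

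Cancers without an H-ras mutation were compared across the 6 causes. No member was called by the F test over the 6 groups, a test that called 1 gene of 11773 (0.00849%) and gave an unadjusted p under 0.05 for 8.82%. Dusp4 aside, Spry4 was the 1 member with an unadjusted p under 0.05 (unadjusted p = 0.00756, adjusted p = 0.39, limma). Over the 8 cancer groups with more than 1 array, group means of Spry4 ran from 9.52 ± 0.20 (SD, n = 4) in radiation plus MNU nonmutated to 10.07 ± 0.31 (SD, n = 5) in MNU mutated cancers. Neighbours in that order were at most 0.15 apart, less than the median within-group SD of 0.20. Radiation plus MNU nonmutated cancers also had the lowest mean of Spry2 (10.36 ± 0.43, n = 4), Dusp4 (6.90 ± 0.33, n = 4) and Dusp5 (9.54 ± 0.25, n = 4). Radiation plus PhIP cancers had the highest mean of Dusp6 (13.04 ± 0.08), Etv4 (10.92 ± 0.48), Etv5 (10.84 ± 0.18) and Phlda1 (10.55 ± 0.48, all n = 4). Spry1 spanned the least, from 10.40 ± 0.24 in PhIP nonmutated to 10.82 ± 0.26 in radiation cancers. Dusp4 aside, only for Dusp5 did the widest step between neighbouring group means exceed the median within-group SD (0.25 against 0.23).

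Against spontaneous cancers, no member was called in any of the 5 induced nonmutated groups. The share of all genes called was 0.0255% for radiation, 0.0425% for MNU, 0.00849% for PhIP, 0.068% for radiation plus MNU and 0.0255% for radiation plus PhIP. Dusp4 in PhIP cancers aside, the lowest unadjusted p of a member was that of Spry4 in radiation plus PhIP cancers (0.44 ± 0.16, unadjusted p = 0.00893, adjusted p = 0.347, limma). With array weights it was 0.42 and called (adjusted p = 0.0279), in a fit that called 6.61% of all genes.

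Adding radiation to a chemical also called no member, and 0% of all genes, in any of the 3 comparisons (unadjusted p under 0.05 for 7.86%, 6.03% and 9.43% of genes). In nonmutated MNU cancers, 3 of 9 members had an unadjusted p under 0.05, all lower with radiation. Spry2 was 11.02, 11.38, 11.02 and 10.67 after MNU and 10.54, 9.72, 10.54 and 10.63 after radiation plus MNU (-0.66 ± 0.24, unadjusted p = 0.00962, adjusted p = 0.526, limma). Dusp5 lay between 9.85 and 10.19 in the 4 MNU cancers and at 9.72, 9.63, 9.64 and 9.17 with added radiation (-0.51 ± 0.18, unadjusted p = 0.0082, adjusted p = 0.526, limma). Spry4 differed by -0.39 ± 0.14 there (unadjusted p = 0.0105) and by -0.34 ± 0.13 in mutated MNU cancers (unadjusted p = 0.0129), neither called (adjusted p = 0.534 and 0.793, limma). Macrophage markers averaged 9.71 in nonmutated MNU cancers and 10.40 with added radiation. Over the cancers their mean had r = -0.206 with Spry2, -0.0999 with Dusp5 and -0.213 with Spry4. None passed the threshold (adjusted permutation p = 0.566, 0.884 and 0.566), and their part in these differences was not tested further.

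In PhIP cancers Spry4 lay the other way. It was 9.41, 9.73 and 9.78 after PhIP and 9.96, 10.25, 10.07 and 9.97 after radiation plus PhIP (0.42 ± 0.16, unadjusted p = 0.0107, adjusted p = 0.436, limma). The radiation difference in PhIP minus that in nonmutated MNU cancers, a contrast added after these values were seen, was 0.82 ± 0.21 for Spry4 (unadjusted p = 0.000581, adjusted p = 0.218, limma) and 1.06 ± 0.35 for Spry2 (unadjusted p = 0.00519, adjusted p = 0.421). Etv4 had the largest difference, 1.42 ± 0.67 (unadjusted p = 0.0441, adjusted p = 0.596, limma). These 3 of 9 members had an unadjusted p under 0.05, and all missed the threshold, in a contrast that called 0.00849% of genes and gave 8.08% an unadjusted p under 0.05. With array weights the Spry4 value was 0.80 and called (adjusted p = 0.0244, limma), in a fit that called 1.32% of all genes, though that weighting stopped before its convergence tolerance.

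Whether the members rise and fall together from cancer to cancer was described by correlation over the 33 cancers, which share array platform and RNA quality differences. Of 36 pairs, 24 were positive, 5 had an adjusted permutation p under 0.05 by Pearson and 10 by Spearman correlation, and the median r was 0.185. The 5 include Dusp4 with Dusp6, a description only, since Dusp4 passed the filter through the PhIP nonmutated cancers alone. Dusp6 and Etv5 were most alike (r = 0.655, rho = 0.70, adjusted permutation p = 0.012 and 0.00072; r = 0.787 without the 2 cancers farthest from the median). Next came Spry2 and Dusp6 (r = 0.613, rho = 0.611, adjusted permutation p = 0.00738 and 0.00432; r = 0.527 without 2 cancers). Etv4 and Etv5 followed (r = 0.574, rho = 0.601, adjusted permutation p = 0.00738 and 0.0048; r = 0.431 without 2 cancers).

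The other pair past the threshold by Pearson correlation was Spry2 with Phlda1 (r = 0.473, rho = 0.464, adjusted permutation p = 0.039 and 0.0277; r = 0.333 without 2 cancers). Dusp4 with Dusp6 (r = 0.506, rho = 0.37; r = 0.431 without 2 cancers) is given as a description with no test. Its r was 0.188 without both arrays of high hexokinase ratio. By Spearman correlation alone 6 further pairs passed. Dusp6 was among them with Etv4 (r = 0.262, rho = 0.552, adjusted permutation p = 0.338 and 0.00819; r = 0.681 without 2 cancers), with Phlda1 (r = 0.42, rho = 0.526, adjusted permutation p = 0.101 and 0.0141; r = 0.517 without 2 cancers) and with Spry4 (r = 0.219, rho = 0.498, adjusted permutation p = 0.376 and 0.0162; r = 0.194 without 2 cancers). Spry2 was among them with Etv5 (r = 0.435, rho = 0.51, adjusted permutation p = 0.0601 and 0.0141; r = 0.319 without 2 cancers) and with Etv4 (r = 0.389, rho = 0.431, adjusted permutation p = 0.101 and 0.0473; r = 0.372 without 2 cancers). The sixth was Etv4 with Phlda1 (r = 0.44, rho = 0.513, adjusted permutation p = 0.0601 and 0.0141; r = 0.372 without 2 cancers). Subtracting each group's mean left the 3 leading pairs at 0.666, 0.663 and 0.619. The same step moved Spry1 with Spry2 from -0.241 to -0.452 and Spry2 with Dusp5 from -0.111 to -0.353. It also moved Spry1 with Dusp5 from -0.0075 to 0.231 and Spry4 with Dusp5 from 0.207 to -0.076. Spry1 and Dusp5 had no pair with an adjusted p under 0.05. With group means left in, their Pearson correlations with the other members ran from -0.276 to 0.207.

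**Figure D4:**
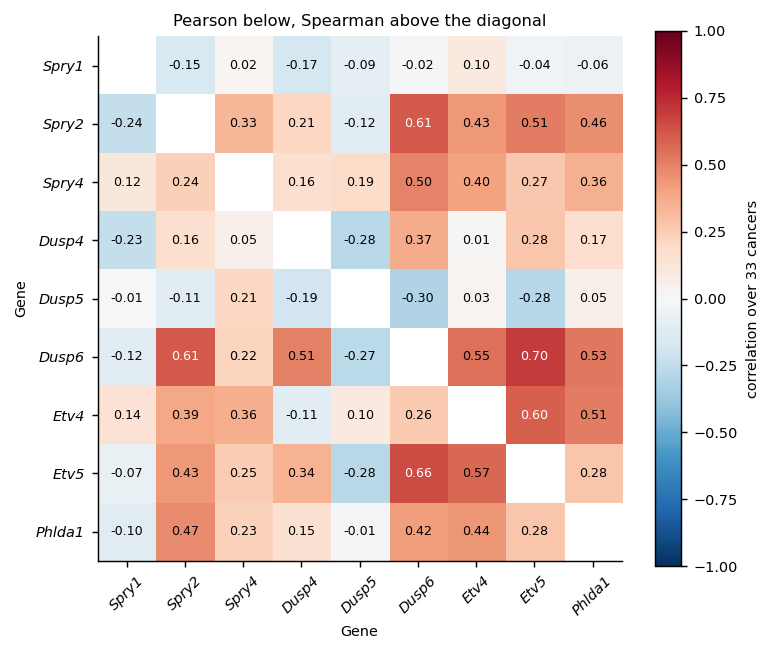
The grid gives the correlation of each pair of members over 33 cancers, Pearson below and Spearman above the diagonal, with red for positive and blue for negative. Dusp6 with Etv5 (0.655), Spry2 with Dusp6 (0.613) and Etv4 with Etv5 (0.574) are highest below the diagonal, while the Spry1 and Dusp5 entries are pale.

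Ranked among all 11772 other genes by Pearson correlation over the cancers, Dusp6 stood 48th in likeness to Spry2, Etv5 160th to Dusp6 and Etv5 124th to Etv4. The genes most like Spry1 were St6gal1 (0.647), Tgfbi (0.593) and RT1-Ba (0.584). For Spry2 they were Asic2 (0.748), Ano1 (0.748) and Mvb12b (0.747), and for Spry4 Tulp3 (0.682), Mfsd2a (0.672) and Epha2 (0.671). Dusp4 was most like Pabpc4 (0.707) and Foxc1 (0.705), Dusp5 like Ttc23 (0.625), Sms (0.622) and Ift22 (0.619), and Dusp6 like Trub2 (0.838), Nfib (0.828) and Nfia (0.823). Etv4 was most like Arhgef40 (0.798), the immediate early factor Egr2 (0.793) and Col6a6 (0.791). Etv5 led with Trim29 (0.834), Fbxw7 (0.819) and Slc22a17 (0.811), and Phlda1 with Susd4 (0.849), Zdhhc9 (0.798) and Ephb4 (0.788). These are the highest of 11772 values each and carry no test.

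Other genes of the pathway gave the setting, in cancers against normal tissue. There 18% of all genes were called higher and 16.4% lower, with a median difference of 0.02. Of 20 other negative regulators, 14 were measured, 5 called higher and 2 lower (median difference 0.22). Pebp1, the RAF kinase inhibitor protein, rose by 0.78 ± 0.12 (adjusted p = 1.54e-05), Dusp14 by 0.60 ± 0.16 and Spred3, a relative of Spred1, by 0.49 ± 0.12. The stress-induced phosphatase Dusp1 fell by 0.81 on the log2 scale (SE 0.25, adjusted p = 0.0144, limma). Of 29 genes from growth factor receptors to ERK, 23 were measured, 1 called higher and 5 lower (median -0.03). Rasgrf1, a RAS guanine nucleotide exchange factor, rose by 1.79 ± 0.38, and Nras, itself a RAS gene, fell by 0.75.

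Of 28 immediate early and delayed ERK targets, 25 were measured, 7 called higher and 7 lower (median 0.02). Ccnd1, which encodes cyclin D1, rose by 1.19 ± 0.23, and the receptor tyrosine kinase genes Epha2 and Epha4 by 1.31 ± 0.26 and 1.69 ± 0.35, while the transcription factor Klf4 fell by 1.21. Of 17 other ETS factors, 16 were measured, 4 called higher and 3 lower (median 0.17). Etv1, the third PEA3 group factor, rose by 0.78 ± 0.23 (adjusted p = 0.0105) and Gabpa by 0.56 ± 0.13, whereas Erg and Fli1, both known from endothelial and blood cells, fell by 0.82 and 1.03 (limma). By H-ras status no gene of these 4 lists was called. The named values in the mean H-ras test included Fos, 0.59 ± 0.21 higher in mutated cancers (adjusted p = 0.494), Rps6ka3, 0.33 ± 0.11 higher (adjusted p = 0.456), Spdef, 0.87 ± 0.30 higher (adjusted p = 0.456), and Dusp10, 0.28 ± 0.14 higher (adjusted p = 0.641, limma). For each of them the difference was larger in MNU than in radiation plus MNU. The values were 1.17 and -0.0018 for Fos, 0.54 and 0.12 for Rps6ka3, 1.33 and 0.42 for Spdef, and 0.52 and 0.052 for Dusp10. The same held for Dusp1, Rasgrf1, Sos2, Nr4a1 and Ets2, also named by the mean test and higher in mutated cancers. Arc, the other such gene, went the opposite way, with 0.10 in MNU and 0.24 in radiation plus MNU. Ets1 and Lrig1, named by the same mean test, were lower in mutated cancers, by 0.34 (SE 0.15, adjusted p = 0.603) and 0.16 (SE 0.13, adjusted p = 0.817, limma). Over the whole lists, 5 of 14 other negative regulators and 16 of 23 genes from receptors to ERK were higher in that test. So were 19 of 25 ERK targets and 8 of 16 other ETS factors. In the same order the list medians were -0.018, 0.047, 0.035 and 0.013, beside 0.003 over all genes. The difference between backgrounds was called for no gene of the array, as given above.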

How the data were processed

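The authors deposited 1 table of linear array intensities (31099 probe sets, 36 arrays); per the labels, biotin-labelled cRNA was hybridised. Background correction, summary method and scaling are not given in the sources used here. Intensities received a constant of 42.8 (their 20th percentile) and were taken to log2. Probe sets above 125.8 (40th percentile) on at least 3 arrays were kept, and the brightest probe set stood for each symbol (11773 genes). Symbols came from the platform's annotation. limma 3.58.1 (R 4.3.3) fitted 1 mean per group over 36 arrays (26 residual degrees of freedom), with Benjamini-Hochberg adjustment over all genes. The cancers' mean weights groups by their arrays, and the mean H-ras difference weights both backgrounds equally. Correlations used 100000 two-sided permutations. The number of arrays limits precision. Alternatives were the constant, filter, quantile normalization, every probe set, array weights, a replicate block, a Gapdh ratio covariate and leaving out arrays. Named were all members, up to 4 genes per list by adjusted p against normal tissue, up to 3 by p in the mean H-ras test, and for likeness the 3 most correlated genes. Members and lists were chosen with earlier results of these data known. The code was tested on simulated data. No 2 arrays were alike enough to be 1 library (highest correlation 0.9805).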

Additional observations from a re-analysis of the deposited data

Results flagged for a closer look

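In 10 of 54 sets of 4 or 5 values of a member within a group, 1 cancer stood far from the rest by Dixon's criterion, and chance alone flags about 1 set in 20. MNU mutated cancer 1 was lowest in 3 of them: Dusp6 at 9.53 (the others 12.16 to 13.07), Etv5 at 9.61 (10.22 to 10.47) and Dusp4 at 6.29 (7.13 to 7.26). MNU nonmutated cancer 4 was lowest for Etv5 at 8.24 (10.62 to 10.78) and Phlda1 at 9.23 (10.36 to 10.44). These cancers have the arrays with the highest hexokinase 3′/5′ ratios. Over the cancers that ratio had r = -0.504 with Dusp6, -0.622 with Etv5 and -0.116 with Phlda1. None passed the threshold (adjusted permutation p = 0.177, 0.177 and 0.767). Without these arrays r was 0.16, 0.219 and 0.18, and the ratio's part in the low values was not tested further. Radiation plus MNU nonmutated cancer 2 was lowest for Spry2 at 9.72 (10.54 to 10.63) and Dusp6 at 10.73 (12.67 to 12.96), with a hexokinase ratio within the range of the other arrays. That array had the highest macrophage (10.97) and fibroblast (11.41) marker means of all arrays. Radiation cancer 2 was low for Spry2, at 9.90 (10.83 to 10.95), and had the highest luminal epithelial marker mean (12.12). Over the cancers Spry2 was lower where the luminal marker mean was higher (r = -0.622, adjusted permutation p = 0.009), as described below. The macrophage and fibroblast means had no correlation past the threshold with Spry2 or Dusp6, and their part was not tested further. Radiation plus MNU nonmutated cancer 4 was low for Dusp5, at 9.17 (9.63 to 9.72), and radiation plus MNU mutated cancer 5 for Etv4, at 9.93 (10.32 to 10.40).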

How the results depend on the processing

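Across 46 settings, 3651 of 3726 values of the 9 members kept their sign and their side of the threshold in 9 comparisons (cancers against normal tissue, H-ras status and added radiation). Single groups against normal tissue and against spontaneous cancers are not among these: of 3312 such values against normal tissue 10 gained and 23 lost a call, and of 2070 against spontaneous cancers 1 changed its call. The number of members called in cancers against normal tissue was 5 to 6 when 1 array was left out, 6 with array weights and 7 without the 2 arrays of highest hexokinase ratio. The number of all genes called ran from 2737 to 4266 with 1 array left out and was 1931 with the luminal covariate, a fit chosen after seeing the data. For single groups against normal tissue, leaving out 1 array moved the count of members between 4 and 6 (radiation), 5 and 6 (MNU mutated), 4 and 5 (PhIP nonmutated, without Dusp4), 3 and 5 (radiation plus MNU nonmutated) or 6 and 8 (radiation plus PhIP). Array weights, whose fit stopped before its convergence tolerance, raised the count of members called from 0 to 1 for radiation plus PhIP against spontaneous (Spry4), radiation added to PhIP (Etv5, 0.88, adjusted p = 0.0349, limma), the radiation difference in PhIP minus MNU (Spry4) and the F test over 6 causes, while the share of all genes called also rose, to 6.61%, 4.99%, 1.32% and 7.36%. Replicate numbers were not treated as pairs. Over all groups, same-numbered arrays had residual correlations from -0.498 to 0.395 (median 0.00034, other pairs 0.0001). Between mutated and nonmutated cancers, the 4 same-numbered pairs had a median of -0.15 in MNU (other pairs 0.043). In radiation plus MNU it was 0.189 (other pairs -0.084). With replicate number as a block (replicate block) 5 members were called in cancers against normal tissue and 0 by H-ras status.

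In the 9 comparisons, signs turned only for differences not called with every array in the fit, and the cause was not tested. With array weights they were H-ras in MNU Spry1 -0.026 and Etv5 -0.26, H-ras in radiation plus MNU Phlda1 0.10, radiation added to nonmutated MNU Etv5 -0.30, radiation added to mutated MNU Phlda1 0.16. With the luminal covariate they were H-ras in MNU Spry1 -0.018 and Dusp4 0.048, H-ras in radiation plus MNU Phlda1 0.044, the mean H-ras difference Spry2 0.030 and Dusp5 -0.015 and Dusp6 0.021 and Etv4 0.013, radiation added to PhIP Dusp5 0.10. Without the 2 arrays of highest hexokinase ratio they were H-ras in MNU Dusp4 0.034 and Etv5 -0.32, radiation added to nonmutated MNU Etv5 -0.46, radiation added to mutated MNU Dusp4 -0.15 and Dusp6 -0.036. With the Gapdh 3′/5′ ratio as covariate they were H-ras in MNU Etv5 -0.31, H-ras in radiation plus MNU Etv4 -0.049, the mean H-ras difference Dusp4 -0.066 and Etv5 -0.020, radiation added to nonmutated MNU Etv5 -0.31, radiation added to mutated MNU Dusp4 -0.042. With 1 array left out at a time, these differences changed sign. For H-ras in MNU, Spry1 ran from -0.0033 to 0.23, Dusp4 ran from -0.15 to 0.17, Dusp6 ran from -1.06 to 0.033, Etv4 ran from -0.80 to 0.022, Etv5 ran from -0.47 to 0.38. For H-ras in radiation plus MNU, Dusp6 ran from -0.23 to 0.51, Etv4 ran from -0.013 to 0.18, Phlda1 ran from -0.44 to 0.41. For the mean H-ras difference, Dusp6 ran from -0.41 to 0.16, Etv4 ran from -0.37 to 0.039, Etv5 ran from -0.025 to 0.40, Phlda1 ran from -0.38 to 0.044. For the difference of H-ras differences, Spry4 ran from -0.034 to 0.16, Dusp4 ran from -0.019 to 0.33, Phlda1 ran from -0.11 to 0.74. For radiation added to nonmutated MNU, Dusp6 ran from -0.77 to 0.23, Etv5 ran from -0.46 to 0.39, Phlda1 ran from -0.69 to 0.013. For radiation added to mutated MNU, Dusp4 ran from -0.15 to 0.10, Dusp6 ran from -0.036 to 0.85, Phlda1 ran from -0.32 to 0.35. For radiation added to PhIP, Dusp5 ran from -0.24 to 0.12. For the radiation difference in PhIP minus MNU, Spry1 ran from -0.016 to 0.22.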

Other observations

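Of 90 correlations of the 9 members with 8 marker list means and 2 control ratios over the 33 cancers, 1 passed the threshold by Pearson correlation. Spry2 was lower where the mean of the luminal epithelial markers was higher (r = -0.622, rho = -0.612, adjusted permutation p = 0.009 and 0.0225; r = -0.603 without the 2 cancers farthest from the median of the marker mean). With group means subtracted r was -0.665, and without the 2 arrays of highest hexokinase ratio it was -0.604. By Spearman correlation alone, Etv5 with the skeletal muscle markers also passed (r = -0.395, rho = -0.541, adjusted permutation p = 0.254 and 0.0417). Dusp4 with the hexokinase ratio (r = -0.511, rho = -0.565) is given as a description with no test.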
